A study of Mus musculus with 8 samples.

Results

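Much of the mouse genome is repeated sequence, and a small part of the open chromatin of blood progenitors lies almost wholly inside it. ATAC-seq peaks were assigned to this class when at least 90% of their bases are in lower case in the GRCm38 (mm10) reference, which writes bases marked as repeats in lower case. In MPP3 cells, 1498 of 87642 peaks met this threshold (1.71%, 95% Wilson interval 1.63 to 1.8%). In MPP4 cells, 885 of 86952 peaks met it (1.02%, interval 0.953 to 1.09%). These 2383 peaks are referred to as repeat peaks. All lie on the 19 autosomes, the chromosomes that the deposited peaks cover.

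MPP3 and MPP4 are early progenitors without lineage markers that carry Sca1 and c-Kit. Both are CD150-CD48+, and MPP4 cells also carry Flt3. ATAC-seq was done on 5000 sorted cells per library, in 8 libraries from C57BL/6 mice, with 2 libraries for each genotype and cell type. The study's methods give the background as C57BL/6J. *Ebf1* KO mice are labelled Ebf1fl/fl Tie2Cre +/cre, and Cre under *Tie2* control acts in blood and endothelial cells alike. *Ebf1* WT mice are labelled Ebf1fl/fl Tie2Cre +/+, without Cre, whereas the series description calls them Ebf1-wt Tie2Cre. The MPP3 mice were 8 wk old for *Ebf1* WT and 8 to 9 wk old for *Ebf1* KO. The MPP4 mice were 9 wk old for *Ebf1* WT and 8 wk old for *Ebf1* KO. Accessibility is given as the authors' mean log2 CPM (counts normalised to the size of the library), a single value per peak over the 4 libraries of a cell type, both genotypes together. No spread between libraries was analysed, genotypes were not compared, and all values are descriptions without a test. The authors normalised the MPP3 and MPP4 tables separately, so levels of the cell types are only set side by side.

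Repeats fall into classes with different biology. Satellite DNA forms long tandem arrays at centromeres, where assemblies mostly show a gap, and telomeres end chromosomes with tandem TTAGGG units. Microsatellites and minisatellites are short tandem arrays scattered along chromosome arms. Transposable elements are dispersed: SINEs of the B1 and B2 families carry RNA polymerase III promoters, LINEs copy themselves through RNA, and endogenous retroviruses are flanked by long terminal repeats with their own promoters. Old copies have diverged, so that a short read from them can often be placed, whereas reads from young copies or arrays fit many places. The reference gives only the case of each base and not the name of the repeat. Names are therefore given below only where the sequence itself leaves no doubt.

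Lower-case bases made up less of the peaks than of the genome. The authors left out fragments from regions known to attract reads and reads of low mapping quality, and the part of these filters in this was not tested. Lower-case bases make up 33.5% of the known autosomal bases, but they made up 12.6% of all peak bases in MPP3 and 12.3% in MPP4 cells. Some lower-case bases were present in 66.2% of MPP3 and 68.3% of MPP4 peaks, whereas over 50% lower case was reached by 6.79% and 5.45%. The threshold did not fall on a break in the data. The MPP3 peaks at 85 to 90% lower case numbered 377, with a median of 1.15 log2 CPM, and the 400 at 90 to 95% had a median of 1.11. In MPP4 cells the corresponding bands held 263 and 248 peaks, with medians of 1.26 and 1.21. Just inside the threshold lay chr1:86363794-86364043 in MPP3 cells (90% lower case, 3.15 log2 CPM) and chr6:119401756-119401905 in MPP4 cells (90%, 0.64 log2 CPM). Just outside it lay chr5:96936327-96936585 in MPP3 cells (89.961%, 1.9 log2 CPM) and chr8:29977030-29977368 in MPP4 cells (89.971%, 1.72 log2 CPM).

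Most repeat peaks were short and weak. Their median length was 198.5 bp in MPP3 and 216 bp in MPP4 cells, against 273 and 285 bp over all peaks. Their median GC content was 48.7% and 48.9%, against 52.5% and 51.9% over all peaks. Median accessibility was 1.03 log2 CPM in MPP3 cells (quartiles 0.73 to 1.46) and 1.12 in MPP4 cells (0.7 to 1.76), against 2.24 and 2.35 over all peaks. A longer peak collects more fragments, so levels were also taken per length. Per kb of peak, the medians were 3.36 in MPP3 and 3.35 in MPP4 cells on the log2 scale, against 4.11 and 4.15 over all peaks.

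A short tail of repeat peaks was strongly accessible. A level of at least 5 log2 CPM was reached by 17 repeat peaks in MPP3 cells (1.13%, against 8.41% of all peaks) and by 15 in MPP4 cells (1.69%, against 8.6%). The MPP3 list of the 100 strongest peaks held 2 repeat peaks, and the MPP4 list held none. Among the 1000 strongest, 7 were repeat peaks in MPP3 and 4 in MPP4 cells. The top of this tail was a single stretch of satellite sequence.

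The stretch lies on chromosome 9 at the centromeric edge of the assembly. Its repeat peaks in MPP3 cells span chr9:3001976-3031396 (29421 bp) and begin 1975 bp after the first assembled base of the chromosome, which is base 3000001. Within this span all 15 MPP3 peaks and all 17 MPP4 peaks were repeat peaks. In MPP3 cells their levels ran from 3.2 to 7.96 log2 CPM with a median of 6.57, and in MPP4 cells from 2.38 to 7.02 with a median of 5.59. The DNA is AT-rich (34.8% GC) and matches itself best at a shift of 234 bp, where 69.3% of bases are equal, against a mean of 31.7% over shifts of 1 to 500 bp. The next best shifts were 468 bp and 58 bp, each with 56.1% equal bases. This unit and the sequence printed below are those of the mouse major satellite, the main DNA of mouse pericentromeric heterochromatin. Since a unit of 234 bp is as long as many peaks, the tandem search described below, which asks for several units within a peak, did not count these peaks as tandem.

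The 161-bp repeat peak at chr9:3023510-3023670, with 7.27 log2 CPM in MPP3 and 6.29 in the overlapping MPP4 peak, is printed to show the unit. It is the forward strand of GRCm38, 5′ to 3′, and capitals mark TTCC, the reverse complement of the GGAA core of ETS-family motifs.
satellite: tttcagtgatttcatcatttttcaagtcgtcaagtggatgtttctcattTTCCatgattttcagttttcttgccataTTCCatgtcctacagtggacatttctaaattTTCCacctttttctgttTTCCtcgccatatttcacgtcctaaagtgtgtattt
It holds TTCC 4 times. The GGAA core was present in all 32 repeat peaks of the stretch, near its share of 93.1% over all MPP3 and 95.6% over all MPP4 peaks. Of the other motifs searched, given below, only the IRF motif was found there, in 2 of the 32 peaks.

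The strongest repeat peak of MPP3 cells, chr9:3023868-3024269, reached 7.96 log2 CPM (6.81 in MPP4 cells) and ranked 68th among all MPP3 peaks. It was followed by chr9:3001976-3002311 with 7.81 (6.76 in MPP4 cells), chr9:3006642-3006949 with 7.38 (6.39), chr9:3023510-3023670 and chr9:3020127-3020630 with 6.89 (5.78). In MPP4 cells the strongest was chr9:3024448-3024605 with 7.02 log2 CPM, ranked 345th, which overlapped no MPP3 peak. Per kb of peak, the level of chr9:3023510-3023670 in MPP3 cells was 9.91 on the log2 scale, the highest of any MPP3 repeat peak. In the stretch, 14 pairs of overlapping peaks were repeat peaks in both tables, and all 14 had a higher value in the MPP3 table. The difference ran from 0.82 to 1.19 log2 CPM, with a median of 1.04, against a median of −0.04 over all 66324 MPP3 peaks with an MPP4 partner. The offset was thus nearly the same over these 14 pairs. Of the peaks in the stretch, 14 of 15 in MPP3 and 14 of 17 in MPP4 cells overlapped a peak of the other table. The remaining ones, among them the strongest MPP4 peak, give no offset. The depth of the libraries and the share of reads from satellite DNA in each table were not analysed, and their part in the offset was not tested.

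The satellite stretch carries gene models without known function. By the centre of the peak, 10 of the 15 MPP3 and 11 of the 17 MPP4 peaks lay within 1 kb of a transcript start of *Gm10717*, *Gm10718*, *Gm10719*, *Gm10721* or *Gm11168*, which are annotated as protein coding and lie inside the satellite. The peak chr9:3023510-3023670 has its centre 43 bp from the start of *Gm10718*. The 5 strongest repeat peaks near a protein-coding start in each cell type all lay in this stretch. The words of 50 bases in these peaks occur many times in the reference. The median number of copies per peak ran from 4 to 52, so fragments from other copies cannot be told apart here from fragments of these positions.

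Another centromere-side stretch lies on chromosome 10, where 8 MPP3 and 8 MPP4 repeat peaks span chr10:3109850-3117135 in MPP3 cells. It begins 9849 bp after the first assembled base, lies between genes, and matches itself best at a shift of 19 bp, with 76.7% equal bases. Levels ran from 3.45 to 6.07 log2 CPM in MPP3 and from 3.03 to 5.01 in MPP4 cells. The strongest MPP3 peak was chr10:3113249-3113931 with 6.07, which overlaps MPP4 peaks of 4.57 and 4.15. All peaks of the stretch overlapped a peak of the other cell type, as did 93.0% of MPP3 and 93.6% of MPP4 peaks of at least 2 log2 CPM. Its first 190 bases, chr10:3113249-3113438, are printed on the forward strand to show the array, whose unit is AAGTCTGCACACACATACT. Capitals mark bases that differ from the base 19 positions before them.
19-bp array: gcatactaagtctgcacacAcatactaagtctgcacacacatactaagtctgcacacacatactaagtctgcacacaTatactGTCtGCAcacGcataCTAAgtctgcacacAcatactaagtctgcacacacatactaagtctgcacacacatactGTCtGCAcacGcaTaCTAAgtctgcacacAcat
The unit is kept over several copies and then shifts, at the runs of capitals. None of the 16 planned motifs, nor the added TTAGGG and GGAA, matched any of the 16 peaks of this array.

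The third run of at least 5 neighbouring repeat peaks, with gaps of at most 10 kb, was seen in MPP4 cells at chr17:13550661-13553166, over introns of *2700054A10Rik*. Its 5 peaks had 2.09 to 3.86 log2 CPM, and all overlapped an MPP3 peak, as did 93.6% of MPP4 peaks of at least 2 log2 CPM. Its strongest MPP3 peak, chr17:13552558-13553185, reached 4.95 log2 CPM, and the overlapping MPP4 peak 3.86. This peak is an array of ACAGC units, printed for its first 150 bases at chr17:13552558-13552707 on the forward strand, which carries the unit as CTGTG. Capitals mark bases that differ from the base 5 positions before them.
5-bp array: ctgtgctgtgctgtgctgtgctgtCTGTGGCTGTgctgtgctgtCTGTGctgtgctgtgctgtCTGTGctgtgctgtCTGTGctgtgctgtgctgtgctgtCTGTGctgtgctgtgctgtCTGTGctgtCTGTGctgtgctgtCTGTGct
Beyond these runs, neighbouring repeat peaks were rare. Of the MPP3 repeat peaks, 1402 had no other within 10 kb, and of the MPP4 repeat peaks, 812.

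Telomere-type repeats formed a further set, with strong peaks at some chromosome ends. A group of 24 repeat peaks, 12 in each cell type and spread over 11 chromosomes, was made of or contained TTAGGG units, and 23 of the 24 held TTAGGG itself. Levels ran from 1.08 to 6.88 log2 CPM in MPP3 and from 0.8 to 6.51 in MPP4 cells, with medians of 2.07 and 1.6. The strongest lies at the distal end of chromosome 12, at chr12:120028630-120029002, which ends 20 bp before the last assembled base. It had 6.88 log2 CPM in MPP3 cells, and its MPP4 counterpart had 6.51. The next, chr2:182012659-182013193, ends 31 bp before the last assembled base of chromosome 2 and had 6.13 in MPP3 and 5.78 in MPP4 cells. The words of 50 bases in the chromosome 12 peak occur a median of 1080 times in the reference. Words of this length thus do not separate the end of chromosome 12 from other copies.

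Telomere-type peaks away from chromosome ends did not reach the levels of these end peaks. Not every end was strong, since 1 MPP3 peak that ends 1 bp before a last assembled base had 2.06 log2 CPM. The peak chr2:57629417-57629788 had 3.9 log2 CPM in MPP3 and 3.33 in MPP4 cells. In introns of *Wdr76*, *Ppp1r9a*, *Frmd4b*, *Pxylp1*, *Dop1b*, *Cfap74* and *Abhd6*, such peaks had between 0.8 and 2.11 log2 CPM. Unlike the ends, most of these inner peaks had a median of 1 copy of their words. In each cell type 11 of the 12 telomere-type peaks overlapped a peak of the other table (interval 64.6 to 98.5%). Over all peaks 75.7% in MPP3 and 76.7% in MPP4 cells did so. In 8 telomere-type pairs both partners were repeat peaks, and all 8 had the higher value in the MPP3 table, by a median of 0.48 log2 CPM. Among pairs with a partner below the lower-case threshold, 1 had the lower value in MPP3 cells (2.06 against 2.17).

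The next question was how many repeat peaks are tandem arrays. A peak was classed as tandem when at least 70% of its bases equal the base a fixed distance on, for a distance of at most 250 bp that fits at least 3 times into the peak, and dispersed otherwise. Tandem arrays made up 481 MPP3 repeat peaks (32.1%, interval 29.8 to 34.5%) but 157 in MPP4 cells (17.7%, 15.4 to 20.4%). Median accessibility was 0.96 log2 CPM for tandem and 1.07 for dispersed repeat peaks in MPP3 cells, and 0.85 and 1.18 in MPP4 cells. Dispersed repeat peaks numbered 1017 in MPP3 and 728 in MPP4 cells. How the surplus of MPP3 repeat peaks divides between the classes depends on the threshold, since at 60% equal bases 700 MPP3 and 196 MPP4 peaks were tandem.

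Arrays of 2-bp units made up most of the MPP3 tandem peaks. There were 280 of them in MPP3 cells, 262 of these with the unit AC and 17 with AG, against 63 in MPP4 cells, 55 with AC and 8 with AG. They were weak, with a median of 0.88 log2 CPM in MPP3 and 0.59 in MPP4 cells, and the strongest reached 2.34 and 1.83. Only 15 of the MPP3 arrays of this kind overlapped an MPP4 peak, against 75.7% of all MPP3 peaks and 52.9% of those under 2 log2 CPM. The strongest of MPP3 cells, chr5:3479825-3480182, had 2.34 log2 CPM and lay in *Cdk6*, which encodes a cell-cycle kinase. The overlapping MPP4 peak had 0.86. Its first 120 bases, chr5:3479825-3479944, are printed on the forward strand, with capitals at bases that differ from the base 2 positions before them.
2-bp array: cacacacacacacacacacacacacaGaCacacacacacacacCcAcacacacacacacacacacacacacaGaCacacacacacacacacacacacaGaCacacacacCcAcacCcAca
The array is almost pure, with single changes between runs of CA. The strongest MPP4 peak with a period of 2 bp, chr8:123587496-123587662, had 1.83 log2 CPM and lay in the 5S rRNA gene cluster, 498 bp from *n-R5s129*.

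Arrays of 5-bp units were fewer and stronger. MPP3 cells had 38 and MPP4 cells 27, of which 30 and 22 had the unit ACAGC. These ACAGC arrays had a median of 2.2 log2 CPM in MPP3 and 1.83 in MPP4 cells. A peak of the other cell type was overlapped by 18 of the 30 in MPP3 and 18 of the 22 in MPP4 cells. Over all peaks the shares were 75.7% and 76.7%. The longest repeat peak of all, chr5:104330863-104332286 (1424 bp) in an intron of *Mepe*, was such an array, with 4.93 log2 CPM in MPP3 and 4.29 in MPP4 cells. An AGCCC array in an intron of *Plekha2*, chr8:25066433-25067166, had 4.67 in MPP4 and 4.48 in MPP3 cells. Periods of 6 bp were found in 29 MPP3 and 22 MPP4 repeat peaks, with the telomere-type unit the commonest (8 and 9 peaks). Periods of 4 bp were found in 24 and 7 repeat peaks, and periods of 8 bp in 13 and 2. The strongest with a period of 4 bp were an AGGC array at chr17:32430039-32430364 in MPP3 cells (1.64 log2 CPM) and an ACCT array in *Pcca* at chr14:122568877-122569164 in MPP4 cells (1.9). The strongest with a period of 8 bp, the AGAGAGGC array chr1:72233674-72234356, had 3.76 log2 CPM in MPP3 cells and no MPP4 peak. It was the strongest MPP3 repeat peak outside the satellite stretch without an MPP4 partner.

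Repeat peaks that resemble each other were then grouped by alignment, at 80% identity over 80% of the shorter peak, with a peak joined to a group by any of its peaks. The 2383 repeat peaks, at 2021 loci, fell into 473 groups, of which 375 held a single peak. Only 27 groups held at least 5 peaks, yet these held 1843 peaks, and the 5 largest held 66.7% of all. At this identity a few groups thus made up most repeat peaks. At 90% identity they did not, since the 5 largest groups then held 32.3%, groups of at least 5 held 947 peaks, and 1111 of 1284 groups held a single peak. Peaks of a group were joined by their sequence, so motifs they share follow in part from the grouping. Intervals within a group treat related copies as independent. Groups are numbered by size below. The satellite stretch is group 6, the telomere-type peaks are group 8 and the 19-bp array is group 10.

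Group 1, with 708 repeat peaks, collects short tandem arrays, which align to each other through their simple units. By the tandem rule 69.9% of its peaks were tandem. It held 583 MPP3 but 125 MPP4 peaks, and 9.09% of the MPP3 peaks overlapped an MPP4 peak, against 40.0% in the other direction. Over all peaks these shares were 75.7% and 76.7%. In 42 pairs both partners were repeat peaks, with a median difference of 0.58 log2 CPM toward MPP3, and 37 of them had the higher value in the MPP3 table. At 90% identity this group came apart, and the largest group of mostly tandem peaks then held 188.

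Group 2 was the largest group of dispersed repeats, with 348 repeat peaks, 150 in MPP3 and 198 in MPP4 cells, at 238 loci on all 19 autosomes. Its peaks were shared between the cell types more often than those of group 1. Of its MPP3 peaks, 88.0% overlapped an MPP4 peak (interval 81.8 to 92.3%), against 75.7% of all MPP3 peaks. Of its MPP4 peaks, 63.1% overlapped an MPP3 peak (56.2 to 69.5%), against 76.7% of all MPP4 peaks. Median accessibility was 1.46 log2 CPM in MPP3 and 1.38 in MPP4 cells, and 68.4% of its peaks lay between genes. The difference between tables was small, with a median of −0.1 log2 CPM (MPP3 minus MPP4) over the 110 pairs in which both partners were repeat peaks, of which 45 were higher in the MPP3 table. At 90% identity group 2 stayed nearly whole as the largest group, with 342 peaks.

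Group 2 peaks often matched motifs of some blood transcription factors and seldom those of others. The most frequent planned motif was the B box of RNA polymerase III promoters, GTTCNANNC, in 67.5% of the group, against 10.2% of all MPP4 peaks, and NFY (CCAAT) was present in 28.7%, near its 28.1% over all MPP4 peaks. The frequent motifs of blood factors were TTGCNNAA for CEBP, TGTGGTT for RUNX, TTCNNNGAA for STAT and GAGGAAGT for PU.1, searched on both strands, where N is any base. CEBP factors act in myeloid cells, and PU.1 acts in both myeloid and lymphoid differentiation. RUNX factors act throughout blood development, and STAT factors downstream of cytokine receptors. The CEBP motif was present in 42.5% of group 2 peaks, RUNX in 40.5%, STAT in 33.9% and PU.1 in 23.9%. Over all peaks of MPP4 cells, the shares were 11.7%, 13.9%, 7.96% and 10.9%. Rarer in group 2 than over all MPP4 peaks were the E-box (CAGGTG or CAGCTG), with 5.75% against 40.0%, and the GATA factor motif, with 1.44% against 9.85%. The same held for AP-1 (1.15% against 11%), EBF1 (0.575% against 6.49%), IRF (0.287% against 4.75%) and ETS (0.287% against 2.03%). No group 2 peak matched the CTCF, TATA, YY1 or CREB motif, against 16.7%, 9.32%, 2.41% and 1.09% of all MPP4 peaks. The group 2 shares pool the peaks of both cell types. In the MPP3 table too each of the motifs rarer or absent in group 2 was more frequent over all peaks than in the group. A match is a description of the letters and does not show that a factor binds.

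The strongest peak of group 2, chr13:6889445-6889887, had 5.43 log2 CPM in MPP4 and 4.76 in MPP3 cells and lies between genes, 36185 bp from the closest transcript start. Its bases chr13:6889530-6889829 are printed as group 2, with capitals at the matches to the B box, STAT and NFY, in this order. Beside it stands the whole peak chr16:93786892-93787145 of MPP4 cells (2.2 log2 CPM), chosen after its values were seen because it holds all of the CEBP, PU.1, RUNX and STAT motifs, here in capitals in the order CEBP, PU.1, CEBP, RUNX and STAT. Both are forward strands of GRCm38.
group 2: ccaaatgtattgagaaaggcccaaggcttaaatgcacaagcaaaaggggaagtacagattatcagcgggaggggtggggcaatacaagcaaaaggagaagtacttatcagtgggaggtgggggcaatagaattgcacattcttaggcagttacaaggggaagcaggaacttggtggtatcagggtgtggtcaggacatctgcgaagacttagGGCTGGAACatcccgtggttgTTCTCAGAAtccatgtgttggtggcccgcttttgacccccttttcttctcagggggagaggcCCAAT
group 2, most motifs: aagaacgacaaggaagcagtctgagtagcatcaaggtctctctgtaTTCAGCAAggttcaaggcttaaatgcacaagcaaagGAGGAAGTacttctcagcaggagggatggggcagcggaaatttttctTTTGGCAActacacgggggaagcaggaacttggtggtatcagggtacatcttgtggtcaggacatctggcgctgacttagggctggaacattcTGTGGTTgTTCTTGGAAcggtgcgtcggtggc
The family name of this repeat was not assigned. In group 2, peaks with up to 3 of these 4 motifs were longer and stronger the more of them they held. In MPP4 cells, the 30 peaks with none of the 4 had a median of 0.94 log2 CPM and 196 bp, and the 78 with 1 motif had 1.25 and 242.5 bp. The 59 with 2 motifs had 1.66 and 270 bp, the 24 with 3 had 1.91 and 333 bp, and the 7 with all 4 had 2.03 and 297 bp. In MPP3 cells the medians for none, 1, 2 and 3 motifs were 1.16, 1.38, 1.69 and 2.07 log2 CPM, while the 2 peaks with all 4 had 1.3. A longer peak holds more letters and more fragments, so length and motif number cannot be told apart here. The motifs differed in this, since MPP3 peaks with PU.1 had a median of 1.34 log2 CPM and those without 1.52 (1.44 and 1.37 in MPP4 cells). Other motifs went with as large a rise, for instance the B box with 1.63 against 1.15 in MPP3 and 1.53 against 0.99 in MPP4 cells, and NFY with 1.91 against 1.34 and 1.77 against 1.27.

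Group 3 held 249 repeat peaks, 149 in MPP3 and 100 in MPP4 cells. Its median accessibility was 0.9 log2 CPM in MPP3 and 1.36 in MPP4 cells. Of the 50 pairs in which both partners were repeat peaks, 17 had the higher value in the MPP3 table, with a median difference of −0.16 log2 CPM. The NFY motif CCAAT was present in 69.9% of the group, against 27.4% of all MPP3 and 28.1% of all MPP4 peaks, and the YY1 motif AAGATGGC in 26.5%. The strongest peak, chr2:3719359-3719770 in an intron of *Fam107b*, had 4.17 log2 CPM in MPP4 and 3.62 in MPP3 cells. Its bases chr2:3719377-3719676 are printed on the forward strand, since they show both motifs. Capitals mark NFY on either strand (first ATTGG, then CCAAT), YY1 and the B box, in this order.
group 3: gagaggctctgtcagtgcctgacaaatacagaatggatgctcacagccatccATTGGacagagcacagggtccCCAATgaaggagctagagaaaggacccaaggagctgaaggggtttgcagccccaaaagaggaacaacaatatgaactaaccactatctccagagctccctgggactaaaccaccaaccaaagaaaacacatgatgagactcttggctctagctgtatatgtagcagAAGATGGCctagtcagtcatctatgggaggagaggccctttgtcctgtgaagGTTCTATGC
Group 3 held 34 of the 52 MPP3 repeat peaks with the YY1 motif (65.4%) and 32 of the 40 in MPP4 cells. The YY1 motif was among the motifs found more often in repeat peaks than in all peaks, with 3.47% against 2.29% in MPP3 and 4.52% against 2.41% in MPP4 cells.

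Group 4, with 226 repeat peaks at 188 loci, 99 in MPP3 and 127 in MPP4 cells, had 60.6% of its peaks in introns. Within 1 kb of a transcript start lay 10.2%, the highest share of the 5 largest groups. Median accessibility was 1.25 log2 CPM in MPP3 and 0.99 in MPP4 cells. The CTCF motif (CC, any 3 bases, AG, any 2 bases, then GGC) was present in 81.0% of the group (interval 75.4 to 85.6%), against 15.8% of all MPP3 and 16.7% of all MPP4 peaks. CTCF is an architectural protein that stops cohesin loops. The RUNX motif was present in 73.0% and the B box, a part of the promoter that RNA polymerase III uses at SINEs and tRNA genes, in 45.6%.

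The strongest peak of group 4, chr8:105564786-105565180 in an intron of *Atp6v0d1*, which encodes a subunit of the proton pump of lysosomes, had 4.32 log2 CPM in MPP4 and 4.01 in MPP3 cells. A match to the CTCF motif did not go with higher levels within the group. In MPP3 cells the median was 1.19 log2 CPM for the 80 peaks with a match and 1.44 for those without, and in MPP4 cells 0.95 for the 103 with a match and 1.18 without. Of all repeat peaks with the CTCF motif, group 4 held 80 of 122 in MPP3 (65.6%) and 103 of 148 in MPP4 cells (69.6%).

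Group 5 held 59 repeat peaks, 30 in MPP3 and 29 in MPP4 cells, with medians of 0.88 and 0.78 log2 CPM, and 66.1% lay in introns. Over 50% of the words of 50 bases were unique in all 59. The PU.1 motif GAGGAAGT was present in 59.3% of them, the highest share of any of the 10 largest groups. The strongest, chr10:128663870-128664174, had 2.79 log2 CPM in MPP3 and 2.62 in MPP4 cells. Its bases chr10:128663870-128664169 are printed on the forward strand with the PU.1 match in capitals.
group 5: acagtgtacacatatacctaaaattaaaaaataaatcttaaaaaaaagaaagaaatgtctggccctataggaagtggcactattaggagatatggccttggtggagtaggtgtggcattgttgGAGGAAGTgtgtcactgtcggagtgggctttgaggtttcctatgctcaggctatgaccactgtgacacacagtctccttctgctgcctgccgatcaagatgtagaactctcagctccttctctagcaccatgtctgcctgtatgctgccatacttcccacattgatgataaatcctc
Within the group, the median with and without the PU.1 motif was 0.91 and 0.87 log2 CPM in MPP3 cells and 0.78 and 0.73 in MPP4 cells. Peaks with and without these letters thus had nearly the same levels.

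The smaller groups added a few further kinds. Group 7 held 30 repeat peaks, 73.3% of them between genes, and the strongest reached 2.83 log2 CPM at chr1:80371496-80371822 in MPP4 cells. Group 9 held 19, of which 14 had the E-box and 13 the RUNX motif. Its strongest peak was chr3:15159601-15159941 with 3.0 log2 CPM in MPP4 cells. Group 14, with 11 peaks on 2 chromosomes, held MPP3 peaks only and was GC-rich (median 64.7%). Its peaks were weak, with a median of 1.27 and at most 1.53 log2 CPM, and none overlapped an MPP4 peak. Of peaks under 2 log2 CPM, 22.7% of MPP3 repeat peaks and 52.9% of all MPP3 peaks did so. Group 17, with 8 peaks, contained chr19:5406485-5406934, which had 5.66 log2 CPM in MPP3 and 5.74 in the overlapping MPP4 peak. It lies 30 bp from the start of the noncoding transcript model *4930481A15Rik* and was the strongest repeat peak not in a tandem array or satellite in either cell type.

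The annotation names a handful of repeats by position, and the repeat peaks were aligned to these. The named SINE of the B1_Mus2 kind aligned to 30 MPP3 repeat peaks (2.0%) and 34 MPP4 repeat peaks (3.84%), with a median identity of 87.8% and 88.5%. Of these 64 peaks, 22 belonged to group 4, which holds 226 repeat peaks, so most of that group did not align to it. No other group held more than 2 of the 64. The small RNA gene *Rn4.5s* aligned to 11 MPP3 and 5 MPP4 repeat peaks, and *Bc1*, another small RNA gene, to 1 and 2. An LTRIS4 long terminal repeat aligned to 1 MPP3 peak, and AmnSINE1, MuRRS4-int and *Rn7sk* aligned to none.

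Motif content was also read over all repeat peaks. The GGAA core was present in 49.1% of MPP3 repeat peaks and 75.9% of MPP4 repeat peaks, against 93.1% and 95.6% of all peaks. In tandem repeat peaks it was present in 9.15% and 14.6%. Motifs that were rarer in repeat peaks than in all peaks of both cell types were the E-box, GATA factors (AGATAA), AP-1 (TGANTCA), EBF1 (TCCCNNGGG), NFY, IRF, the TATA box (TATAAA), CREB (TGACGTCA) and ETS (CCGGAAGT). The E-box was present in 11.2% of MPP3 and 12.2% of MPP4 repeat peaks, against 38.7% and 40.0% of all peaks. The EBF1 motif was present in 24 MPP3 repeat peaks (1.6%, against 7.46% of all peaks) and in 8 MPP4 repeat peaks (0.904%, against 6.49%). For GATA the shares were 3.4% and 3.73%, against 11.5% and 9.85% of all peaks, and for AP-1 2.34% and 4.29%, against 11% in both tables. The ETS motif, which contains GGAA as PU.1 does, was present in no MPP3 and 1 MPP4 repeat peak, against 2.05% and 2.03% of all peaks.

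The remaining motifs differed between the cell types. CTCF was present in 8.14% of MPP3 repeat peaks, against 15.8% of all peaks, and in 16.7% of MPP4 repeat peaks, against 16.7% of all. RUNX was present in 12.4% of MPP3 repeat peaks, against 12.4% of all, and in 25.9% of MPP4 repeat peaks, against 13.9% of all. CEBP was present in 7.28% of MPP3 and 14.2% of MPP4 repeat peaks, against 11.7% of all peaks in both. STAT was present in 5.07% and 11.1%, against 7.22% and 7.96%, and PU.1 in 5.14% and 12.1%, against 9.56% and 10.9%. The B box was more frequent in repeat peaks of both cell types, with 14.3% and 27.2%, against 9.72% and 10.2%. Tandem arrays, which make up more of the MPP3 repeat peaks, held almost none of these letters. The added TTAGGG was present in 8.41% and 18.3% of repeat peaks, against 11.3% and 11.6% of all peaks, mostly through group 2, where 56.3% of peaks held it. Shares were also taken over dispersed repeat peaks alone. This class still holds part of the short arrays of group 1, of which 69.9% were tandem by the rule. There CTCF was present in 12.0% in MPP3 and 20.3% in MPP4 cells, CEBP in 10.6% and 17.3%, STAT in 7.47% and 13.3%, PU.1 in 7.47% and 14.7% and the B box in 20.7% and 32.8%. RUNX was present in 17.8% and 31.3% of dispersed repeat peaks, while within group 4 it was present in 72.7% and 73.2%, and within group 2 in 36% (interval 28.8 to 43.9%) and 43.9% (37.2 to 50.9%). The parts of array content and of peak length in such shares were not tested. In peaks of 200 to 350 bp the relation to all peaks changed for some motifs. There RUNX was present in 17.9% of MPP3 repeat peaks against 12.2% of all peaks. CTCF was present in 15.8% of MPP4 repeat peaks against 17.3% of all peaks. STAT was present in 7.05% of MPP3 repeat peaks against 6.81% of all peaks, TTAGGG in 13.5% against 10.3%, and NFY in 26.9% of MPP4 repeat peaks against 24.2%. Group 2 held 62 of the 109 MPP3 repeat peaks with the CEBP motif (56.9%) and 86 of the 126 in MPP4 cells (68.3%), and for STAT 60.5% and 73.5%.

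Repeat peaks were less often shared between the cell types than other peaks. A peak of the other table was overlapped by at least 1 bp by 449 MPP3 repeat peaks (30.0%, interval 27.7 to 32.3%) and by 428 MPP4 repeat peaks (48.4%, 45.1 to 51.7%), against 75.7% and 76.7% of all peaks. Since sharing rises with level over all peaks, it was also read by level. Among repeat peaks of at least 2 log2 CPM, 85.6% in MPP3 and 86.4% in MPP4 cells were shared, against 93.0% and 93.6% of all peaks of that level. Among weaker ones, 22.7% and 39.8% were shared, against 52.9% and 52.3% of all. On either side of 2 log2 CPM repeat peaks were still weaker than all peaks, so level and repeat content cannot be told apart here.

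In MPP3 cells sharing also differed by class, with 14.1% of tandem (interval 11.3 to 17.5%) and 37.5% of dispersed repeat peaks shared (34.5 to 40.5%). In MPP4 cells the shares were alike, with 47.1% (39.5 to 54.9%) and 48.6% (45.0 to 52.3%). The 1049 MPP3 repeat peaks without an MPP4 partner had a median of 0.88 log2 CPM, against 1.57 for the shared ones. Among them 39.4% were tandem and 25.3% had a period of 2 bp. Of the 457 MPP4 repeat peaks without a partner, 18.2% were tandem and 10.7% had a period of 2 bp. The strongest MPP4 repeat peak outside the satellite stretch without an MPP3 partner was chr7:45396317-45396466, with 3.98 log2 CPM, a group 4 peak 650 bp from the start of *Snrnp70*, which encodes a protein of the U1 spliceosome.

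Where both cell types had a repeat peak, levels ran in parallel. Over the 359 MPP3 repeat peaks that overlap an MPP4 repeat peak, the median was 1.63 log2 CPM in MPP3 and 1.68 in MPP4 cells, and the median difference was 0.08. Spearman's rho over these peaks was 0.78, against 0.89 over all 66324 shared peaks. These points share their 8 libraries and the length of the peak, and repeats of a group share their sequence. For tandem repeat peaks the median difference was 0.42 log2 CPM toward MPP3 (59 peaks), and for dispersed ones 0.03 (300 peaks).

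Whether a repeat peak was mostly unique in the genome depended on the length of sequence asked for. In 81.2% of MPP3 repeat peaks (interval 79.2 to 83.1%) and 72.5% of MPP4 repeat peaks (69.5 to 75.4%), over 50% of the words of 50 bases occur once in the reference, against 99.0% and 99.2% of all peaks. With words of 36 bases the shares were 59.2% and 46.4%, and with words of 100 bases, the length of a read, 96.2% and 95%. With 50 bases, a median of at least 10 copies was found in 7.74% and 11.5% of repeat peaks, against 0.185% and 0.168% of all. With 100 bases it was found in 1.74% and 1.24% of repeat peaks. All words of 50 bases were unique in 30.4% of MPP3 and 17.6% of MPP4 repeat peaks, against 90.5% and 91.6% of all peaks, and all words of 100 bases in 86.6% and 77.4% of repeat peaks. The strong tail was different. Of the 20 strongest repeat peaks, 19 in MPP3 and 17 in MPP4 cells had at most 50% of their words unique. The 281 MPP3 repeat peaks of this kind had a median of 1.27 log2 CPM, against 1.0 for the others, and the 243 of MPP4 cells 1.31, against 1.04. The authors counted only reads above a minimum mapping quality, and how this filter acted on the copies was not tested.

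Repeat peaks lay between genes more often, and near transcript starts less often, than peaks as a whole. By the centre of the peak, 51.4% in MPP3 and 47.5% in MPP4 cells lay between genes, against 30.4% of all peaks in both. Introns held 41.9% and 43.3%, against 38.4% and 38.1%, and exons 1.0% and 1.24%, against 4.34% and 4.32%. Within 1 kb of a transcript start lay 5.67% in MPP3 and 8.02% in MPP4 cells, against 26.8% and 27.1% of all peaks. The median distance to the closest start was 12584 bp in MPP3 and 9012 bp in MPP4 cells, against 5772 and 5631 bp over all peaks. Over all peaks, those near starts had the highest median of these classes, with 3.56 log2 CPM in MPP3 and 3.54 in MPP4 cells, and repeat peaks were seldom among them.

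Some protein-coding starts nonetheless had a repeat peak within 1 kb. Outside the satellite stretch, 23 MPP3 and 16 MPP4 repeat peaks lay within 1 kb of a protein-coding start, and those named here were chosen after their values were seen. The group 4 peak chr13:92483359-92483618, with its centre 524 bp from the start of *Fam151b*, had 3.95 log2 CPM in MPP3 and 3.79 in the overlapping MPP4 peak. The peak at the start of the olfactory receptor gene *Olfr1033*, chr2:86020461-86020810, had 3.16 and 3.2. The peak near *Aldh9a1*, which encodes an aldehyde dehydrogenase, had 2.97 in both cell types. Its centre lies 606 bp from the start in MPP3 and 622 bp in MPP4 cells. The group 2 peak chr13:62859223-62859619 had 3.96 in MPP4 and 3.9 in MPP3 cells. In MPP4 cells its centre lies 999 bp from the start of *Fbp2*, which encodes a fructose bisphosphatase. Near *Dffb*, which encodes a nuclease of apoptosis, an ACAGC array had 2.14 in MPP3 and 2.32 in MPP4 cells. Its centre lies 887 bp and 869 bp from the protein-coding start. On chromosome 18, the MPP4 repeat peak 16 bp from the start of *Mpp7* had 4.25 log2 CPM, and the overlapping MPP3 peak, which is below the threshold for lower case, had 6.27.

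The ends of the assembled chromosomes were also places of repeat peaks. Within 200 kb of the first assembled base, on the centromere side, lay 26 MPP3 repeat peaks (1.74%) and 29 MPP4 repeat peaks (3.28%), against 0.149% and 0.137% of all peaks. Their medians were 5.17 and 4.57 log2 CPM, and most of them were the stretches on chromosomes 9 and 10. Within 200 kb of the last assembled base lay 6 (0.401%) and 9 (1.02%), against 0.146% and 0.15% of all peaks, with lower medians of 1.89 and 1.39 log2 CPM. On chromosome 13 an MPP4 telomere-type peak, chr13:120321271-120321658, ran past the last assembled base at 120321639 and had 3.38 log2 CPM. Across the autosomes the share of repeat peaks ranged from 1.04% on chromosome 11 to 2.31% on chromosome 3 in MPP3 cells, and from 0.587% to 1.57% on the same chromosomes in MPP4 cells. Every autosome thus held repeat peaks in both cell types.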

How the data were processed

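The analysis used 2 deposited tables of ATAC-seq peaks, for MPP3 and for MPP4 cells. Per the labels and the study's methods, the authors trimmed reads with cutadapt 2.10, mapped them to mm10, kept short fragments outside regions that attract reads, called peaks with MACS2 2.2.7.1 on merged replicates of each condition, merged them within a cell type, and fitted counts with edgeR 3.32.0. The value used is the log2 CPM deposited by the authors, a mean over the libraries of a cell type. The remaining columns hold the authors' comparison of genotypes (fold change, F, p-value and FDR) and were not used. No value or depth per library was analysed here, so no precision between libraries is given. Intervals are 95% Wilson intervals over peaks. Those of a group with both cell types pooled count each peak of a shared locus separately.

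Lower-case bases, GC content, tandem periods, motifs on both strands and copies of words of 50 bases (both strands, unplaced sequence included) were computed from GRCm38 with Python 3.11.15, numpy 2.4.6, pandas 2.3.3, scipy 1.17.1 and numba 0.67.0. Repeat peaks were aligned with blastn 2.17.0 (e-value at most 1e-10). The functions were tested on simulated data. Position was read from the annotation given with the reference. CPM per kb was computed from the deposited log2 CPM and the length.

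Named peaks were the 5 strongest of each table, the 5 strongest near a protein-coding start, the strongest of the largest sequence groups and of the most frequent periods, the peaks on either side of the threshold and runs of at least 5 neighbours. Other named peaks, the TTAGGG and GGAA counts, motif shares by group, the alignment to named repeats and the distances to assembled ends were chosen after seeing the data. The members and lists were chosen with earlier results of these data known. Alternatives varied the lower-case threshold, peak length, overlap, window around starts, match share, word length, identity and level per kb. No comparison was tested.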

Additional observations from a re-analysis of the deposited data

How the results depend on the processing

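Of 76 alternative values, 32 stayed within the interval of the main value (for counts, within 1.5 times) and 44 moved beyond it. The shares of repeat peaks with CTCF, EBF1, E-box, AP-1, YY1, IRF, TATA, CREB and ETS motifs stayed when only peaks of 200 to 350 bp were taken, as did sharing when the overlap had to cover 50% of the peak.

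At a threshold of 80% lower case there were 2319 repeat peaks in MPP3 and 1438 in MPP4 cells, at 100% 817 and 412, and with peaks of at least 200 bp 738 and 518. Fewer peaks pass a stricter filter by construction. The median log2 CPM in MPP3 cells was 1.07 at 80%, 1.0 at 95% and 0.94 at 100%, and in MPP4 cells 0.99 at 100%. Per kb it was 3.36 and 3.35, on another scale. With mostly unique words it was 1.0 and 1.04.

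MPP3 sharing was 32.9% at 80% lower case, 27.3% at 95% and 23.5% at 100%, and MPP4 sharing 40.5% at 100%. Among peaks of at least 2 log2 CPM it was 85.6% and 86.4%. The share near a start was 2.34% and 3.73% within 500 bp, 10.7% and 15% within 2000 bp, and 2.2% and 3.05% for protein-coding starts. With a match share of at least 0.8, 277 MPP3 and 102 MPP4 peaks were tandem, and with 0.6, 700 and 196. With words of 36 bases, 59.2% and 46.4% of repeat peaks had mostly unique words, and with 100 bases 96.2% and 95%. At 90% identity the largest group, the former group 2, held 342 peaks.

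In peaks of 200 to 350 bp, MPP3 repeat peaks held PU.1 in 6.43%, RUNX in 17.9%, CEBP in 10.2%, STAT in 7.05% and the B box in 18.7%. MPP4 repeat peaks held RUNX in 31%, GATA in 5.57%, CEBP in 19.4%, NFY in 26.9%, STAT in 17.4% and the B box in 35.6%. Beyond the filters, the cause of these moves was not tested.

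No paired analysis was possible because the tables hold a single mean for each peak and the labels pair no libraries. The depth of each library was not analysed, so the precision of a single level is unknown, and weak peaks, which most repeat peaks are, can be missed in one of the cell types. Lower case marks repeats of any age, without names. Copies of words come from the reference, whose centromere and telomere arrays are mostly gaps.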
